A study of Homo sapiens with 6 samples.

Results

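C-to-U edits in the coding sequence (CDS) of mRNA were examined in long reads from HEK293T, an immortalized line of human kidney origin that the sample annotations also spell HEK293XT. A member was any deposited edit that belonged to a protein-coding isoform of GENCODE release 44, lay on the strand of that isoform and fell in an exon between its first and last CDS base. No edit level entered this choice. It gave 239923 distinct CDS sites, where a site is a position and a strand, of 635496 distinct sites in all 6 libraries. They formed 303979 pairs of isoform and position over the 6 libraries, in 8219 isoforms of 6956 genes. All of these edits lay at a cytosine of the coding strand.

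INSCRIBE uses Apo1-Nb, a purified fusion of the cytidine deaminase APOBEC1 and a nanobody against rabbit IgG, which edits RNA close to a protein bound by a rabbit antibody in methanol-fixed cells. The 3 groups held 2 libraries each. RBFOX2-INSCRIBE (replicates 1 and 2) received an anti-RBFOX2 antibody and Apo1-Nb. The enzyme-only control (called replicates 2 and 3 in the sample titles) received Apo1-Nb without that antibody, and the buffer-only control (replicates 1 and 2) received neither. All 6 libraries came from the same unmodified, methanol-fixed line, and replicates were prepared on separate slides, so the spread between them measures slides and libraries rather than independent cultures. The deposited value of each pair is the edited fraction of its reads. The number of reads is not part of the values, so depth is unknown and intervals were not computed.

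RBFOX2 is a splicing regulator whose RNA-binding domain recognizes UGCAUG, mostly in introns beside alternative exons and in 3′ UTRs. The CDS of a mature mRNA is read by ribosomes and is spliced to the 3′ UTR in the same molecule, so a full-length read records edits of both parts. APOBEC1 is known to prefer a cytosine that follows an A or a U. A C-to-U change in the first base of CAA, CAG or CGA turns a glutamine or arginine codon into a stop codon, and other changes are missense or synonymous.

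The sequences that the motif results turn on are those of CDS sites edited in both RBFOX2-INSCRIBE libraries, in neither control, and with UGCAUG within 20 nt in the spliced isoform. There were 158 such sites in 122 genes, under the further limits given with the processing of the data. Of the 10 with the highest mean edit fraction, 1 per gene, the 6 printed here have a window with the whole motif in 1 exon. Each sequence is the RNA strand from 25 nt before to 25 nt after the site, 5′ to 3′, with the edited C and UGCAUG in capitals, from GENCODE release 44 transcripts on hg38.
LCLAT1 (chr2:30640550-30640600, plus strand, exon 6): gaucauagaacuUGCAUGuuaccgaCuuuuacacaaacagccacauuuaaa
WDR89 (chr14:63599219-63599269, minus strand, exon 3): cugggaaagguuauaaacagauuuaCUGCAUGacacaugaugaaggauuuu
ZNF443 (chr19:12431494-12431544, minus strand, exon 4): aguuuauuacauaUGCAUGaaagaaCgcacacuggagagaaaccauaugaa
HMGCS1 (chr5:43298564-43298614, minus strand, exon 3): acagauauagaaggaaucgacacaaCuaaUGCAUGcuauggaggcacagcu
JKAMP (chr14:59498805-59498855, plus strand, exon 5): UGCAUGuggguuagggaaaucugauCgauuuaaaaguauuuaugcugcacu
CWC22 (chr2:179970785-179970835, minus strand, exon 10): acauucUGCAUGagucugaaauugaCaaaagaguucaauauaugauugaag

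The LCLAT1 site, in a lysophospholipid acyltransferase gene, was edited in 3.23% and 8% of reads in RBFOX2-INSCRIBE replicates 1 and 2. It lies 8 nt 3′ of the motif, at the first base of a CUU codon, and is missense. The WDR89 site, directly 5′ of the motif, was edited in 2.5% and 7.69% of reads and is synonymous. The ZNF443 site, in a zinc finger gene, was edited in 4.76% and 4% of reads, and the HMGCS1 site was edited in 3.33% and 5%. HMGCS1 encodes the cytosolic HMG-CoA synthase of the mevalonate pathway. The JKAMP site, at the first base of codon 182 of 305, was edited in 2.78% and 4.17% of reads and would turn CGA into a stop codon. The CWC22 site, in a spliceosome-associated gene, was edited in 3.49% and 1.30% of reads. The other 4 sites under the rule were in WDHD1, CNTLN, PRKAR2B and MKLN1, and in PRKAR2B the motif begins in codon 417 of 418 and ends in the stop codon. These sites were chosen by the values given, which therefore carry no test. Read numbers are unknown, and a high fraction can come from few reads. The part of read depth in this ranking and in the absence from the controls was not tested.

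CDS sites were more numerous with RBFOX2 antibody than in either control. RBFOX2-INSCRIBE libraries held 69073 and 68775 distinct CDS sites, the enzyme-only libraries 36485 and 59849, and the buffer-only libraries 34046 and 33552. The groups did not overlap. The ratio of means was 1.43 over enzyme-only (68924 ± 211 against 48167 ± 16521, SD, n = 2 each) and 2.04 over buffer-only (33799 ± 349, SD, n = 2). Enzyme-only exceeded buffer-only by a ratio of 1.43, and this rested on replicate 3: with replicate 2 alone the ratio was 1.08. RBFOX2-INSCRIBE exceeded enzyme-only by 1.89 when only enzyme-only replicate 2 was kept and by 1.15 when only replicate 3 was kept. Every comparison of library values in 2 groups of 2 that did not overlap gave p = 0.33 by exact permutation of libraries (two-sided), the smallest p this design allows, and 0.36 after Benjamini-Hochberg adjustment over all 105 comparisons of library values, overlapping ones included.

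In number of CDS sites and in the edits used as background, the 2 enzyme-only libraries lay further apart than those of the other groups. For the background, edits on the strand opposite to the isoform were counted within the same coding sequences. They numbered 2507 and 2397 in RBFOX2-INSCRIBE, 1896 and 2375 in enzyme-only and 2315 and 2302 in buffer-only. Per opposite-strand edit, CDS sites were 1.27 times as frequent in RBFOX2-INSCRIBE as in enzyme-only and 1.92 times as frequent as in buffer-only.

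Edit fractions in the CDS were low in every library. The median was 0.536% and 0.551% in RBFOX2-INSCRIBE, 0.641% and 0.552% in enzyme-only, and 0.510% and 0.5% in buffer-only. Enzyme-only replicate 2, with the fewest sites of the 4 libraries that received Apo1-Nb, had the highest median. The share of pairs edited in at least 2% of reads lay between 15.9% and 20.1%. Most CDS sites were private to a library: 193383 of 239923 were found in 1 library, 34293 in 2, 9574 in 3, 2276 in 4, 397 in 5 and 0 in all 6. No CDS site was in both RBFOX2-INSCRIBE and both enzyme-only libraries, and the part of the authors' removal of edits seen across all samples in this was not tested. The RBFOX2-INSCRIBE replicates shared 11891 sites, 17.2% of replicate 1 and 17.3% of replicate 2. The enzyme-only replicates shared 4507 sites, 12.4% of replicate 2 and 7.53% of replicate 3, and the buffer-only replicates shared 2929, 8.60% and 8.73%.

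The CDS gained fewer edits than the 3′ UTR of the same isoforms. Over protein-coding isoforms with at least 50 Cs in each part, 22.7 and 22.9 of 1000 CDS Cs were edited in RBFOX2-INSCRIBE, 13.6 and 20.1 in enzyme-only, and 11.7 in both buffer-only libraries. In the 3′ UTR the values were 38.2 and 39.9, 15.4 and 26.9, and 10.7 and 10.4. Density in the CDS was therefore 0.594 and 0.573 of that in the 3′ UTR with RBFOX2 antibody, 0.881 and 0.747 with enzyme alone, and 1.10 and 1.12 with buffer. The 3 groups did not overlap. The part of read depth in this ratio was not tested. The ratio in RBFOX2-INSCRIBE was 0.717 of that in enzyme-only and 0.526 of that in buffer-only.

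**Figure D1:**
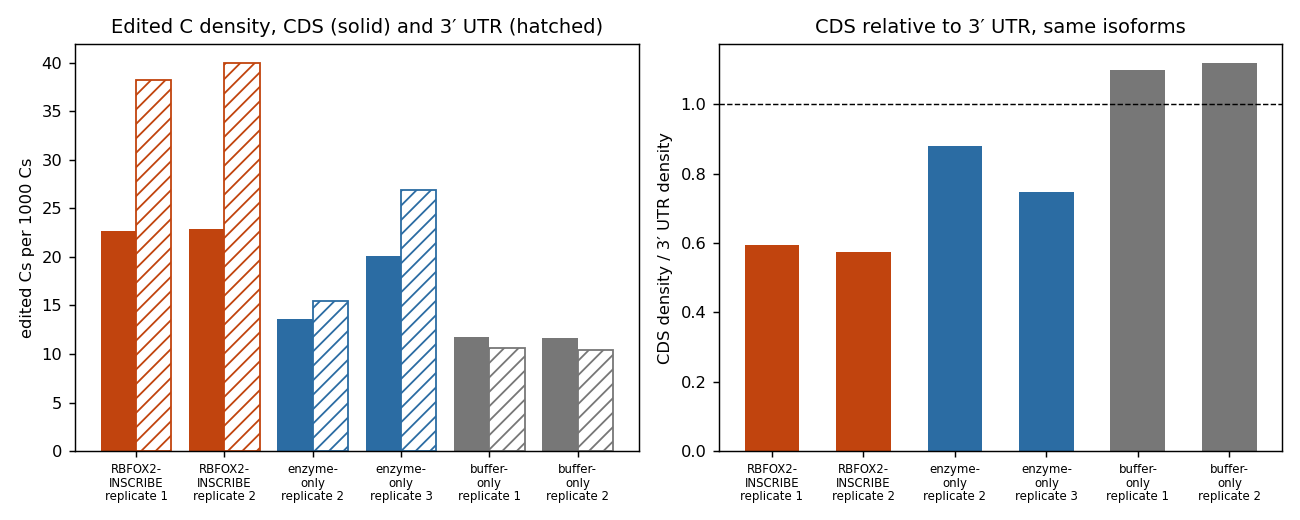
Edited Cs per 1000 Cs in the CDS (solid bars) and 3′ UTR (hatched bars) of the same isoforms in each of the 6 libraries (left), and the CDS density divided by the 3′ UTR density (right; dashed line, equal density). Both RBFOX2-INSCRIBE libraries lie at or under 0.594, the enzyme-only libraries at 0.747 and 0.881, and both buffer-only libraries above 1.

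The same order held close to the stop codon. Within 300 nt on either side of it, CDS Cs were edited at 44 and 43.8 per 1000 in RBFOX2-INSCRIBE, 30.5 and 39.3 in enzyme-only, and 24.9 and 25.5 in buffer-only. The CDS to 3′ UTR ratio there was 0.657 and 0.649 in RBFOX2-INSCRIBE, 0.893 and 0.796 in enzyme-only, and 1.00 and 1.05 in buffer-only. Against the 5′ UTR the CDS was the denser part in every library, by 1.69 and 1.72 in RBFOX2-INSCRIBE, 1.38 and 1.59 in enzyme-only, and 1.17 and 1.16 in buffer-only. Of all pairs in protein-coding isoforms, 35.8% and 34.9% were in the CDS in RBFOX2-INSCRIBE, 44.3% and 40.8% in enzyme-only, and 49.1% and 49.4% in buffer-only.

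Edits in the CDS lay near the RBFOX2 motif more often than Cs of the same exons did in both libraries with RBFOX2 antibody. UGCAUG, searched on the coding strand of the spliced isoform, lay within 50 nt of 3.07% and 2.91% of CDS pairs in RBFOX2-INSCRIBE, against 2.68% and 2.57% of all CDS Cs of the same exons. The ratio was 1.15 and 1.13. In enzyme-only the shares were 1.91% and 2.04% (ratios 0.988 and 1.00), and in buffer-only 2.05% and 1.83% (ratios 1.02 and 0.975). The ratio was 1.14 ± 0.0087 in RBFOX2-INSCRIBE, 0.995 ± 0.0098 in enzyme-only and 0.997 ± 0.0307 in buffer-only (SD, n = 2), and both RBFOX2-INSCRIBE libraries exceeded all 4 control libraries. UGUGUG, the TDP-43 motif of the study, gave ratios between 0.978 and 1.05 in the 6 libraries. It contains GUGUG, which the study counts as a secondary RBFOX2 motif, so it is not a sequence unrelated to RBFOX2. Over all CDS Cs of the listed isoforms, 2.09% had UGCAUG within 50 nt.

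The enrichment in the CDS was smaller than in the 3′ UTR. In the 3′ UTR the same ratio was 1.53 and 1.58 in RBFOX2-INSCRIBE, 0.973 and 0.994 in enzyme-only, and 1.02 in both buffer-only libraries. The CDS ratio minus the 3′ UTR ratio was -0.38 and -0.45 in RBFOX2-INSCRIBE, 0.015 and 0.0081 in enzyme-only, and close to 0 and -0.041 in buffer-only. When all Cs of the whole CDS rather than of the same exon were the reference, the CDS ratio was 1.41 and 1.39 in RBFOX2-INSCRIBE and between 0.979 and 1.09 in the controls. Among CDS edits in at least 2% of reads, the same-exon ratio was 1.27 and 1.21 in RBFOX2-INSCRIBE, 0.990 and 1.05 in enzyme-only, and 0.916 and 0.899 in buffer-only.

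The excess was greatest in the bins up to 25 nt on the 3′ side and up to 10 nt on the 5′ side of the motif. Cs 11 to 25 nt 3′ of UGCAUG carried 1.33 and 1.32 times the edits expected from their exons in RBFOX2-INSCRIBE. Cs 1 to 10 nt 3′ of it carried 1.31 and 1.25 times, and Cs 10 to 1 nt 5′ of it carried 1.28 and 1.30 times. From 11 to 25 nt on the 5′ side the ratio was 1.09 and 1.07. In enzyme-only and buffer-only the bins from 1 to 25 nt on either side ranged from 0.802 to 1.17, with no bin in which all 4 libraries were above 1. The C inside UGCAUG itself was edited at 0.644 and 0.595 of the same-exon expectation in RBFOX2-INSCRIBE, on 64 and 56 pairs, at 1.05 and 0.855 in enzyme-only, and at 1.27 and 1.62 in buffer-only. This C always follows a G and precedes an A. Against Cs of the same CDS with the same preceding and following base, the ratio was 1.12 and 1.01 in RBFOX2-INSCRIBE, 1.01 and 1.05 in enzyme-only and 0.950 and 1.13 in buffer-only, and the groups overlapped.

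**Figure D2:**
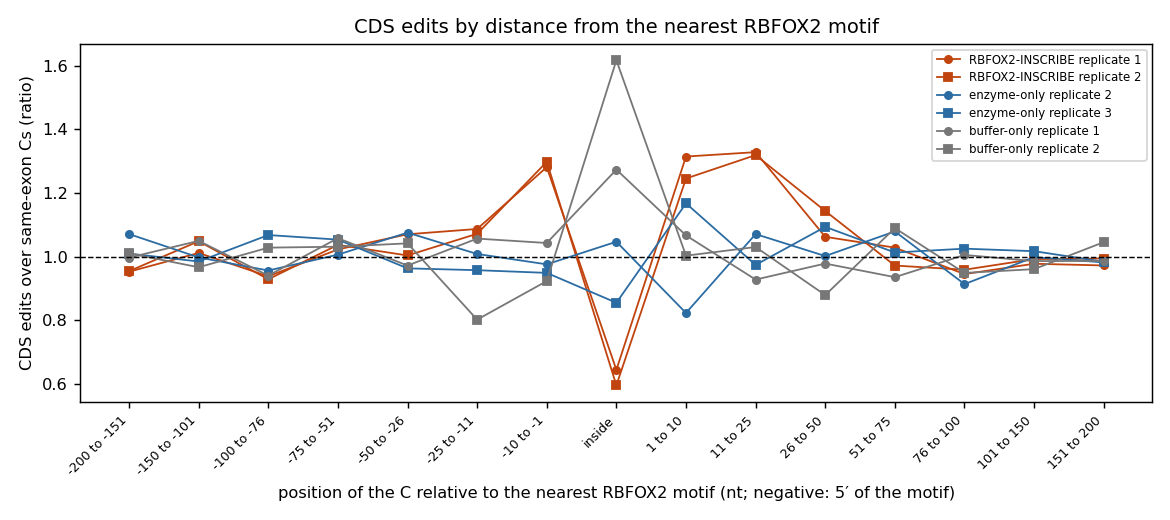
Ratio of CDS edits to the number expected from all CDS Cs of the same exons (vertical axis), by distance of the C from the nearest UGCAUG in nt (horizontal axis; negative values are 5′ of the motif), for each library. The RBFOX2-INSCRIBE libraries (circles, replicate 1; squares, replicate 2) reach 1.25 to 1.33 in the bins from 1 to 25 nt on the 3′ side and from 10 to 1 nt on the 5′ side, and the control libraries scatter around 1.

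Sites found in both replicates of 1 group and in no other library were described in the same way. There were 6100 such CDS sites in RBFOX2-INSCRIBE, 1951 in enzyme-only and 1020 in buffer-only. Of the 6100, 320 had UGCAUG within 50 nt, or 5.25% against 3.98% of the Cs of the same exons, a ratio of 1.32. Of the 1951 enzyme-only sites, 33 had it (1.69% against 1.81%, ratio 0.932). Of the 1020 buffer-only sites, 22 had it (2.16% against 1.67%, ratio 1.29), a ratio that rests on few sites. The expected share itself was higher for the RBFOX2-INSCRIBE sites, so their exons were also richer in Cs near UGCAUG than the average CDS. Their median mean edit fraction was 0.397%, with a range from 0.0158% to 33.3%.

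The base before the edited C separated the libraries with Apo1-Nb from the buffer-only control. CDS edits in RBFOX2-INSCRIBE followed an A 1.54 and 1.56 times as often as all Cs of the same CDS did, and in enzyme-only 1.34 and 1.5 times. In buffer-only this ratio was 0.824 and 0.847. A preceding U gave 1.09 and 1.10, 1.01 and 1.06, and 0.838 and 0.843 in the same order. A preceding G gave 0.930 and 0.900 in RBFOX2-INSCRIBE, 1.13 and 0.981 in enzyme-only, and 1.52 and 1.51 in buffer-only. A preceding C was depleted in every library, to 0.462 and 0.447 in RBFOX2-INSCRIBE, 0.561 and 0.483 in enzyme-only and 0.776 and 0.765 in buffer-only. The ratio for a preceding A or U was 1.32 ± 0.0136 in RBFOX2-INSCRIBE, 1.22 ± 0.0771 in enzyme-only and 0.838 ± 0.0097 in buffer-only (SD, n = 2). For all 4 preceding bases, enzyme-only replicate 2 lay between enzyme-only replicate 3 and the buffer-only libraries.

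**Figure D3:**
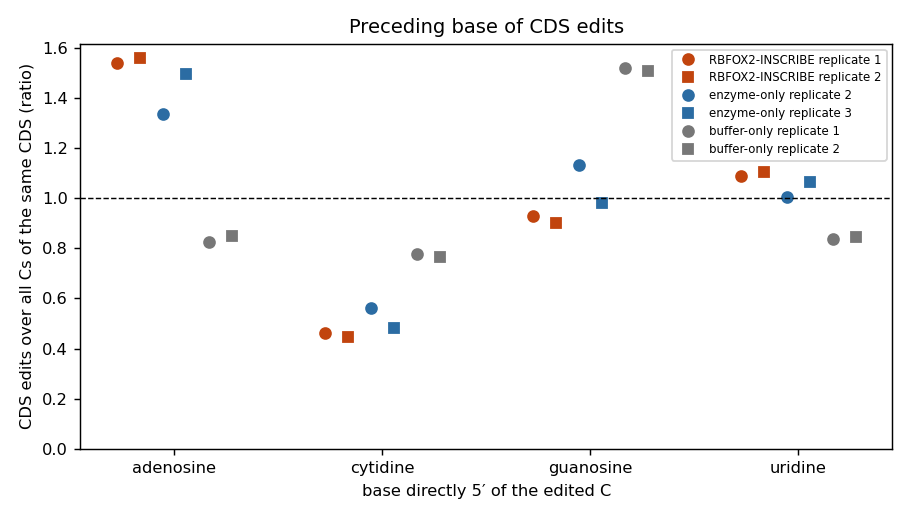
Ratio of CDS edits that follow each base to the share of all Cs of the same CDS that do so (vertical axis), for the 4 preceding bases (horizontal axis) and 6 libraries. Libraries with Apo1-Nb lie above 1 for adenosine, and the buffer-only libraries lie above 1 for guanosine, at 1.52 and 1.51.

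The preference carried over to codons in part. The middle C of the threonine codon ACU, whose edit gives isoleucine, was edited at 1.91 and 1.98 times the rate for all Cs of the same CDS in RBFOX2-INSCRIBE, 1.59 and 1.86 times in enzyme-only and 0.805 and 0.807 times in buffer-only. The last C of the tyrosine codon UAC, a synonymous position, gave 1.76 and 1.85, 1.55 and 1.75, and 0.902 and 0.939. In the alanine codon GCG the order was turned: the ratio was 1.34 and 1.22 in RBFOX2-INSCRIBE, 1.65 and 1.35 in enzyme-only and 2.11 and 2.00 in buffer-only. Not every C after an A was enriched: the middle C of ACC gave 0.899 and 0.909 in RBFOX2-INSCRIBE. That of ACG was above 1 in buffer-only too, at 1.59 and 1.52. A following G also differed, with mean ratios of 1.17 in RBFOX2-INSCRIBE and 1.34 in buffer-only, and its part in these codon values was not tested.

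Stop-creating edits were close in share to the Cs at which they can arise. They made up 8.23% and 8.53% of CDS pairs in RBFOX2-INSCRIBE (5737 and 5929 pairs), 7.94% and 8.40% in enzyme-only, and 8.21% and 8.24% in buffer-only. The Cs of the same coding sequences that would create a stop made up between 7.78% and 8.28%. The ratio of these shares was 1.01 and 1.03 in RBFOX2-INSCRIBE and 1.03 in both buffer-only libraries, a difference in means of -0.010. This small difference depended on the library kept: it was -0.0015 without RBFOX2-INSCRIBE replicate 1 and -0.019 without replicate 2. Compared with Cs of the same preceding and following base, it was 0.991 and 0.989 in RBFOX2-INSCRIBE, 1.02 and 1.01 in enzyme-only and 1.05 and 1.04 in buffer-only. The 3 codons differed: CGA was edited at 1.24 and 1.21 times the expectation in RBFOX2-INSCRIBE and between 1.22 and 1.27 in the controls. CAA gave 1.02 and 1.06 in RBFOX2-INSCRIBE, 1.03 in both enzyme-only libraries, and 0.905 and 0.841 in buffer-only. CAG gave 0.953 and 0.968, 0.969 and 0.985, and 1.03 and 1.07.

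Missense and synonymous edits also stayed close to their expected shares. Missense edits were 51.9% and 52.0% of pairs in RBFOX2-INSCRIBE, 51.7% and 52.1% in enzyme-only, and 54.3% and 54.5% in buffer-only. Relative to the same coding sequences, synonymous edits were at 1.02 in both RBFOX2-INSCRIBE libraries, 0.989 and 1.00 in enzyme-only, and 0.927 and 0.926 in buffer-only. With the same preceding and following base as reference, these became 0.994 and 0.996, 0.980 and 0.985, and 0.964 and 0.965. The median edit fraction of stop-creating pairs was 0.541% in both RBFOX2-INSCRIBE libraries, beside 0.538% and 0.547% for missense and 0.532% and 0.559% for synonymous pairs.

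In both RBFOX2-INSCRIBE libraries, 850 stop-creating sites were shared, and 486 of them were in no control library. Of the 8 with the highest mean edit fraction in RBFOX2-INSCRIBE, 1 per gene, the 6 whose window lies in 1 exon are printed to show where in the protein they fall. Windows stop where the CDS ends, and the edited C, the first base of CAA or CGA, is in capitals.
SYNCRIP (chr6:85615267-85615317, minus strand, codon 446 of 562): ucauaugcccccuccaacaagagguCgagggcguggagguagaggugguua
NDUFAF4 (chr6:96891107-96891140, minus strand, codon 173 of 175): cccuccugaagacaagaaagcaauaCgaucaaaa
MCOLN2 (chr1:84958545-84958595, minus strand, codon 124 of 566): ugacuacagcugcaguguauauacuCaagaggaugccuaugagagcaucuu
BLTP3B (chr12:100059064-100059114, minus strand, codon 730 of 1464): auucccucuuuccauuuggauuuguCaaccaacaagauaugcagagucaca
PLPP6 (chr9:4663233-4663260, plus strand, codon 295 of 295): gguccucuuuuuacuguggagucaaCga
MTF2 (chr1:93118381-93118431, plus strand, codon 232 of 536): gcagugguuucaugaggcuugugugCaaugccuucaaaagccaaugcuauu

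SYNCRIP, an hnRNP-like RNA-binding protein gene, was edited at this site in 8.89% and 7.27% of reads in RBFOX2-INSCRIBE and in 8.89% in enzyme-only replicate 3, and was not listed in the other 3 libraries. NDUFAF4, an assembly factor of respiratory complex I, was edited in 3.50% and 11.3% of reads, and in 2.97% in enzyme-only replicate 2. MCOLN2, a TRP family channel gene, was edited in 6.25% and 6.67%, BLTP3B in 6.90% and 4.35%, PLPP6, a lipid phosphatase gene, in 2.94% and 5.56%, and MTF2, a Polycomb-associated gene, in 3.70% and 3.45%. The NDUFAF4 and PLPP6 edits lie in the last codons of the CDS. The other 2 sites under the rule were in HMGCS1 (6.06% and 2.78%) and MTHFD1L (4.17% and 3.23%). Here too a high fraction can come from few reads, and the part of read depth in this ranking was not tested. Absence from the controls was not particular to stop-creating sites. It held for 486 of those 850 stop-creating sites and for 6100 of all 11891 shared CDS sites. The latter counts take a position in any isoform and include chromosome 8, so the 2 shares are not strictly alike. Since 0 CDS sites were in both RBFOX2-INSCRIBE and both enzyme-only libraries, every shared site was absent from at least 1 enzyme-only library.

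Edits rose along the CDS in every library, the buffer-only control included. With each CDS cut into 10 equal parts, the part next to the start codon held 0.699 and 0.682 of the edits expected from its Cs in RBFOX2-INSCRIBE, 0.779 and 0.744 in enzyme-only, and 0.846 and 0.866 in buffer-only. The part next to the stop codon held 1.31 and 1.33, 1.27 and 1.26, and 1.19 and 1.22 times the expectation. The groups did not overlap at either end, and the slope was steepest with RBFOX2 antibody. How much of the slope comes from reads that do not reach the start codon was not tested, since read coverage along the isoforms is not among the values. Cs within 10 nt of an exon junction made up between 10.6% and 11.7% of edits and between 11.2% and 11.7% of all CDS Cs.

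**Figure D4:**
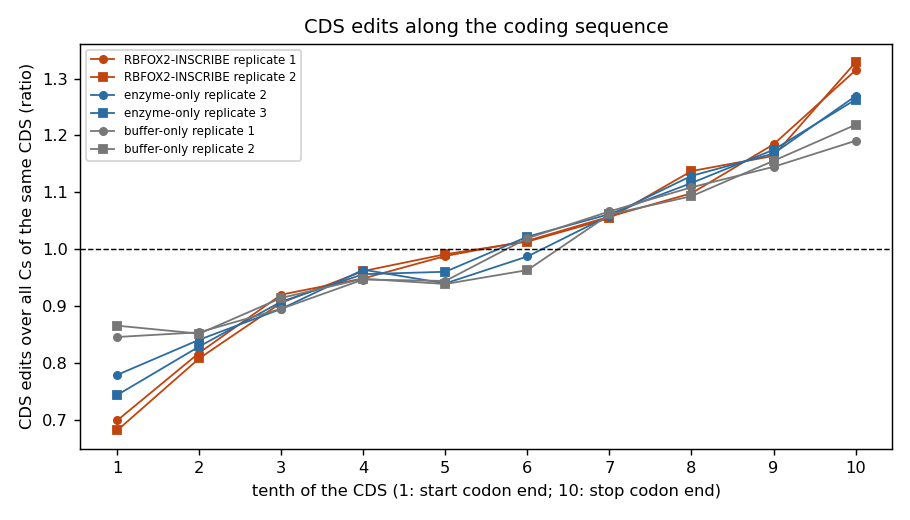
Ratio of CDS edits to the number expected from all Cs of the same CDS (vertical axis) in 10 equal parts of the coding sequence from the start codon to the stop codon (horizontal axis), per library. All 6 libraries rise from between 0.682 and 0.866 beside the start codon to between 1.19 and 1.33 beside the stop codon.

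Single coding sequences were then compared. The CDS of an isoform was tested with limma on log2 of edited Cs plus 0.5 per C, together with the UTRs of protein-coding isoforms and the whole of other isoforms, for segments with on average 5 or more edited Cs. The average was taken over the libraries compared, so a segment could reach it through 1 group alone. Against buffer-only, 1076 of 2704 CDS segments (39.8%), from 1042 genes, rose in RBFOX2-INSCRIBE at an adjusted p under 0.05, and 0 fell; 1322 had an unadjusted p under 0.05 (63.1% of all segments did). Of all 6486 segments tested, 56.2% were called and 56.1% were called higher, so the share in the CDS was below the background. The median log2 difference was 1.11 over CDS segments and 1.60 over all segments. The 2 groups did not overlap, with RBFOX2-INSCRIBE higher, in 1916 CDS segments (70.9%), beside 79.6% of all segments. Leaving out RBFOX2-INSCRIBE replicate 1 or 2 gave 171 or 183 calls, and leaving out buffer-only replicate 1 or 2 gave 0. After each library was set to 1 common total of edited Cs, 0 CDS segments were called and their median was -0.33.

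Against enzyme-only, 0 of 3010 CDS segments passed in limma, beside 0.084% of all 7142 segments. At an unadjusted p under 0.05 there were 263 CDS segments, beside 16.3% of all segments. The median log2 difference was 0.66 in the CDS and 0.88 over all segments, and 39.2% of CDS segments had groups that did not overlap with RBFOX2-INSCRIBE higher, against 49.9% of all segments. Leaving out enzyme-only replicate 2 gave a median of 0.19, leaving out replicate 3 gave 1.06, and a common total gave -0.14. Enzyme-only against buffer-only gave 12 CDS segments of 2239, all higher in enzyme-only, beside 1.45% called and 1.41% called higher of all 4963 segments. The 2 controls did not overlap, with enzyme-only higher, in 705 CDS segments, beside 42.4% of all segments. None of the 12 was called when any of the 4 libraries was left out.

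**Figure D5:**
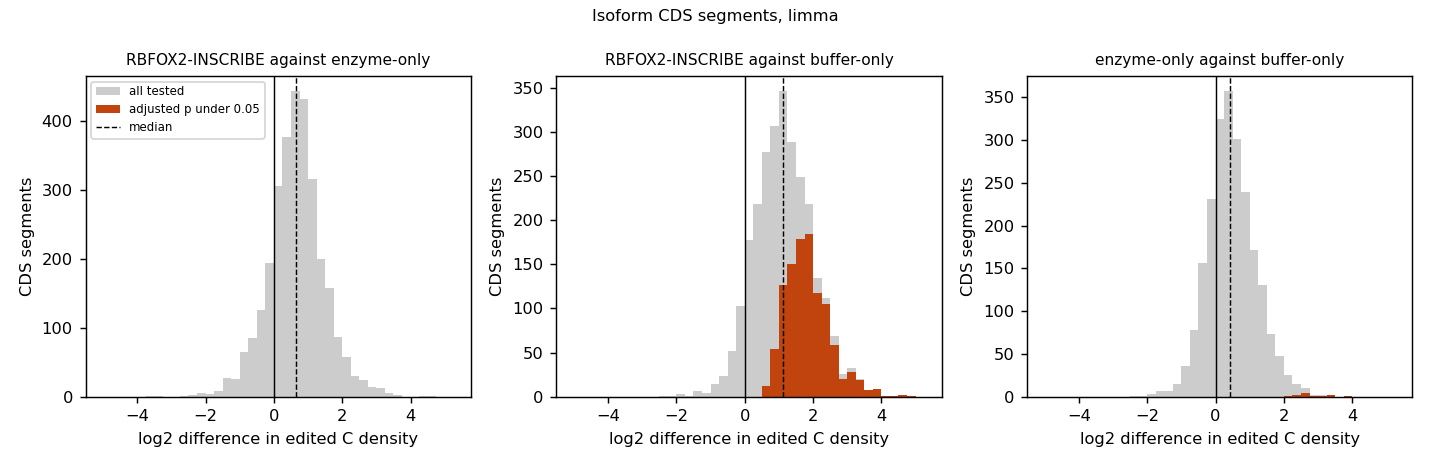
Number of CDS segments (vertical axis) by log2 difference in edited C density (horizontal axis) for the 3 group comparisons, with segments at an adjusted p under 0.05 in limma in orange and the median as a dashed line. The medians are 0.66, 1.11 and 0.43 from left to right, and nearly all calls are in the comparison of RBFOX2-INSCRIBE with buffer-only.

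The difference between the CDS and the 3′ UTR of the same isoform was also tested isoform by isoform. Against buffer-only, the CDS gained less than the 3′ UTR in RBFOX2-INSCRIBE in most of 1770 isoforms, with a median log2 difference of differences of -0.86, and 17.8% of isoforms lay above 0. Against enzyme-only the median was -0.34 over 2004 isoforms. In limma 0 isoforms passed in either comparison (0.0% called), with 436 and 168 at an unadjusted p under 0.05. With at least 10 edited Cs in each part, 94 of 825 isoforms passed against buffer-only, all with the smaller gain in the CDS. Without buffer-only replicate 1, 53 of 1964 passed, 50 with the smaller gain in the CDS and 3 with the larger gain.

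Coding sequences with and without UGCAUG were set side by side, with no test of the difference. Against buffer-only, the median log2 difference was 1.25 over 891 CDS segments with the motif and 1.05 over 1813 without, and 42.6% and 38.4% were called, beside 39.8% of all CDS segments and 56.2% of all segments. Against enzyme-only the medians were 0.80 (965 segments) and 0.60 (2045 segments). In enzyme-only against buffer-only they were 0.40 (686 segments) and 0.45 (1553 segments). Segments with the motif were longer, with a median of 427 to 454 Cs against 303 to 307, and the part of length in this difference was not tested.

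The coding sequences with the largest differences from buffer-only were diverse in function. In NUDT9, an ADP-ribose pyrophosphatase gene (chr4:87422573-87459455), 10 and 17 of 207 CDS Cs were edited in RBFOX2-INSCRIBE, 2 and 4 in enzyme-only and 0 in both buffer-only libraries (adjusted p = 0.00338, limma). ETNK1, an ethanolamine kinase gene, had 9 and 14, 1 and 3, and 0 and 0 (adjusted p = 0.00392). ZNF337, a zinc finger gene, had 8 and 15 edited CDS Cs with RBFOX2 antibody and 0 in all 4 control libraries (adjusted p = 0.00493). MCCC2, a subunit gene of methylcrotonyl-CoA carboxylase, had 9 and 11, 0 and 2, and 0 and 0 (adjusted p = 0.00419). No fold is given for these 4, since buffer-only had no edited C in them.

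Among the other 6, CENPK and NUF2 encode kinetochore proteins: CENPK had 15 and 23 edited CDS Cs in RBFOX2-INSCRIBE, 5 and 10 in enzyme-only and 2 and 0 in buffer-only, and NUF2 had 8 and 19, 3 and 5, and 1 and 0. Their log2 differences from buffer-only were 4.09 ± 0.785 and 3.89 ± 0.749 (SE). CASD1, UGT8, MARCHF7 and CDS1, which act in sialic acid acetylation, galactolipid synthesis, ubiquitination and phospholipid synthesis, had log2 differences from 3.86 to 3.99 and adjusted p from 0.00737 to 0.0198. In all 10 both RBFOX2-INSCRIBE libraries lay above both buffer-only libraries, which the rule for naming them required. No buffer-only library held more than 3 edited CDS Cs in any of them, so RBFOX2-INSCRIBE carried them past the minimum average.

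Against enzyme-only none passed, and the 10 CDS segments with the smallest p are given as values. JKAMP and ZNF337, with 0 edited CDS Cs in both enzyme-only libraries, reached the minimum average of 5 through RBFOX2-INSCRIBE alone. JKAMP, a membrane protein gene tied to JNK1 whose edited sequence is shown above, had 10 and 11 edited CDS Cs in RBFOX2-INSCRIBE, 0 in both enzyme-only libraries and 0 and 1 in buffer-only (adjusted p = 0.0695, limma). HMGCS1 isoform ENST00000433297.2 had 9 and 18 against 1 in each of the 4 control libraries (log2 difference 3.14 ± 0.863, SE, adjusted p = 0.161). The HMGCS1 site printed above near UGCAUG is from another isoform, ENST00000325110.11. ADK, adenosine kinase, had 16 and 20 against 1 and 4 in enzyme-only, and NUDT21, a subunit of the cleavage factor that guides polyadenylation, had 18 and 18 against 2 and 4. CUL3, a scaffold of ubiquitin ligases, had 17 and 20 against 2 and 3, with 10 and 4 in buffer-only. ZNF337, MTFR2, OCIAD1 and TRMT11 likewise lay higher with RBFOX2 antibody in both libraries, with adjusted p from 0.161 to 0.189.

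BTF3 was the 1 of these 10 that lay lower. It encodes a subunit of the nascent polypeptide-associated complex, and 1 and 0 of its 99 CDS Cs were edited in RBFOX2-INSCRIBE against 12 and 9 in enzyme-only and 0 and 4 in buffer-only (adjusted p = 0.0764, limma). The same CDS was higher in enzyme-only than in buffer-only (log2 difference 2.86 ± 0.712, SE, adjusted p = 0.0127, limma). Both comparisons use the same 2 enzyme-only values, which carried this CDS past the minimum average of 5. They are therefore not independent of each other. The largest difference between the controls was in AIMP2, a scaffold of the aminoacyl-tRNA synthetase complex, with 19 and 9 edited CDS Cs in enzyme-only, 0 and 1 in buffer-only, and 2 and 9 in RBFOX2-INSCRIBE (adjusted p = 0.00336). PPP6C, a protein phosphatase catalytic subunit, had 7 and 19 in enzyme-only and 2 and 0 in buffer-only (adjusted p = 0.00651), with 12 and 18 in RBFOX2-INSCRIBE. AIMP2 and PPP6C also reached the minimum average through enzyme-only.

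Among coding sequences of at least 200 Cs, the 10 with the highest mean share of edited Cs in RBFOX2-INSCRIBE included chaperones, actin and translation genes. In HSPA5, the endoplasmic reticulum chaperone BiP (ENST00000324460.7, chr9:125234853-125241343), 213 and 223 of 424 CDS Cs were edited in RBFOX2-INSCRIBE (50.2% and 52.6%). The shares were 17.0% and 46.9% in enzyme-only and 38.2% and 34.2% in buffer-only. In ACTB, cytoplasmic actin, they were 44.5% and 39.1%, 22.3% and 45.6%, and 35.7% and 33.2%, so that enzyme-only replicate 3 exceeded both RBFOX2-INSCRIBE libraries. 

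In HDAC2 both RBFOX2-INSCRIBE libraries lay above all 4 controls, and in ACTR2 they did not. HDAC2, a histone deacetylase gene, had 42.3% and 38.5% of CDS Cs edited in RBFOX2-INSCRIBE, 10.3% and 29.9% in enzyme-only, and 14.1% and 12.0% in buffer-only. ACTR2, a subunit of the actin-nucleating Arp2/3 complex, had 35.1% and 39.2%, 9.91% and 36.0%, and 9.91% and 9.01%. Enzyme-only replicate 3 lay within the range of RBFOX2-INSCRIBE in ACTR2. The disulfide isomerases PDIA6 and PDIA3, elongation factor EEF1A1, the chaperonin subunits TCP1 and CCT4, and the histone-binding RBBP4 completed the 10, at means from 36.3% to 40.2% in RBFOX2-INSCRIBE. In TCP1, enzyme-only replicate 3 (40.9%) exceeded both RBFOX2-INSCRIBE libraries (36.6% and 38.6%), and in PDIA6 (39.0%) and EEF1A1 (30.8%) it lay within their range. EEF1A1 differed between the RBFOX2-INSCRIBE replicates, at 47.5% and 29.5%.

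The 5 genes that the study names had edits in both CDS and 3′ UTR. In APP, the amyloid precursor gene, the isoform with the most edits had 39 and 43 edited CDS Cs of 541 in RBFOX2-INSCRIBE, 7 and 33 in enzyme-only and 23 and 16 in buffer-only. Its 3′ UTR of 198 Cs had 46 and 49, 6 and 30, and 3 and 6. In PKM, pyruvate kinase, 104 and 91 of 413 CDS Cs were edited in RBFOX2-INSCRIBE, 58 and 97 in enzyme-only, and 59 and 73 in buffer-only. In OGT, the O-GlcNAc transferase gene, the CDS of 688 Cs had 27 and 30, 11 and 18, and 19 and 15 edited Cs, while its 3′ UTR of 362 Cs had 93 and 121, 40 and 84, and 37 and 38. DCUN1D4 had 10 and 9 edited CDS Cs in its more edited isoform, against 1 and 7 and 3 and 2 in the controls. DEPDC1 had 35 and 55 in its longer CDS, 9 and 30 in enzyme-only, and 10 and 13 in buffer-only.

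Among functional groups, chaperone coding sequences were the most often called. Of 22 tested CDS segments of cytosolic, mitochondrial and endoplasmic reticulum chaperones, 15 rose against buffer-only and 0 fell. This was 68.2%, beside 39.8% of CDS segments and 56.1% of all segments. The median log2 difference was 0.92, below the 1.11 over all CDS segments, so the call rate does not show a larger gain. HSP90AA1, a cytosolic HSP90 gene, had 32 and 53 edited CDS Cs against 8 and 12 in buffer-only, and CCT2, a chaperonin subunit gene, had 115 and 89 against 40 and 34. Over the whole list, 191 and 182 of 1000 CDS Cs were edited in RBFOX2-INSCRIBE, 79.9 and 169 in enzyme-only, and 101.2 and 99.96 in buffer-only. This is far above the 20.7 and 20.6, 10.9 and 17.9, and 10.2 and 10.02 over all listed CDSs. The part of this density and of read depth in the call rate was not tested.

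Translation factors, SR and hnRNP proteins and splicing regulators had call rates from 35.1% to 38.5%, beside 39.8% over all CDS segments. Of 21 CDS segments of translation elongation and initiation factors, 8 were higher (median 0.85), among them EIF4A2, an RNA helicase of initiation, with 20 and 15 edited CDS Cs against 2 and 4 in buffer-only. Of 37 SR and hnRNP segments, 13 were higher (median 0.86), with HNRNPLL at 10 and 14 against 3 and 1. Of 13 segments of splicing regulators tied to RBFOX2, 5 were higher (median 0.98), among them FUBP1 (31 and 24 against 9 and 12) and RBM39 (32 and 35 against 11 and 17). RBFOX2 itself had at most 2 edited CDS Cs in any library. Of 9 glycolysis segments, 2 were higher (median 0.56): PGK1 had 38 and 28 edited CDS Cs against 13 and 17, and LDHA had 35 and 20 against 12 and 14. GAPDH had 27 and 15 against 24 and 25. Of 7 tubulin and actin segments, 0 passed (median 0.42, range -0.32 to 1.82). None of these lists had a segment called against enzyme-only or in enzyme-only against buffer-only.

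Cytosolic ribosomal proteins stood apart. Of 18 CDS segments tested against buffer-only, 0 passed, and the median was -0.07, beside 1.11 over all CDS segments. Against enzyme-only, 22 of the 96 listed segments reached the minimum average of edited Cs, which a segment could do through enzyme-only alone. All 22 had negative log2 differences, from -2.56 to -0.32, with a median of -0.93, and 0 passed. The other listed segments were not tested. RPS2, a small-subunit protein gene, had 44 and 29 edited CDS Cs in RBFOX2-INSCRIBE, 150 and 60 in enzyme-only, and 46 and 69 in buffer-only. RPS6 had 27 and 10 in RBFOX2-INSCRIBE, 71 and 32 in enzyme-only, and 15 and 24 in buffer-only. Over the list, 42.1 and 22.8 of 1000 CDS Cs were edited in RBFOX2-INSCRIBE, 87.9 and 42.2 in enzyme-only, and 30.6 and 36.8 in buffer-only. RBFOX2-INSCRIBE replicate 1 lay close to enzyme-only replicate 3 by this measure. Enzyme-only replicate 2 was thus the highest of the 6 libraries for ribosomal proteins, although over all CDSs it had the fewest edits of the 4 Apo1-Nb libraries. In the other 6 lists enzyme-only replicate 2 lay below enzyme-only replicate 3. The part of read numbers per gene in these values was not tested.

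Of 8 marker genes of HEK293 cells 4 (VIM, KRT18, NEFL and NEFM) had a listed CDS site, and none of 10 marker genes of liver, islet, erythroid, blood, heart and lung cells was listed. NEFL, a neurofilament gene, had 22 and 16 edited CDS Cs in RBFOX2-INSCRIBE, 13 and 25 in enzyme-only, and 11 in both buffer-only libraries. KRT18 had 4 and 3, 7 and 4, and 30 and 6, with the high value in buffer-only replicate 1. A gene that is not listed may be expressed without an edit that passed the authors' filters.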

How the data were processed

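Edited positions of 6 long-read libraries (PacBio Revio, Kinnex full-length RNA) were used, 2 per group, grouped by sample title. The authors aligned reads to hg38, kept primary alignments of reads with a quality score of at least 20, assigned them uniquely to isoforms with IsoQuant, called C-to-U edits, and removed edits found in all samples and dbSNP positions. The deposited values are the edited fraction of reads per isoform and position, with no read numbers. The annotation version used for long reads is not given in the sources used here. GENCODE release 44 on hg38 was used for isoforms, CDS and spliced sequences, and rows repeated within a library (0 to 5) were dropped.

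Motif, preceding base, codon and position ratios set observed shares against the exact share over all Cs of the same exon or CDS. Groups were compared with two-sided exact permutation tests, and segments with limma 3.58.1 in R 4.3.3 (trend, robust, Benjamini-Hochberg over all segments; pseudocount 0.5, mean of at least 5 edited Cs). Python 3.11.15, pandas 2.3.3, numpy 2.4.6 and matplotlib 3.10.9 were used. On simulated data, limma was tested only for RBFOX2-INSCRIBE against buffer-only, with no library-wide difference in the number of edits. The motif ratio was tested on random and planted edits. These simulations do not cover the spread between the enzyme-only libraries. Named genes were the 5 the study names; per comparison the 10 called CDS segments with the largest difference, or with the smallest p where fewer than 10 passed; the 10 densest CDSs of at least 200 Cs; up to 10 sites near UGCAUG and 8 stop-creating sites by edit fraction, not on chromosome 8; and list members as examples. The counts of 158 sites near UGCAUG and of 850 and 486 stop-creating sites also leave out chromosome 8. They require the site in the same isoform of both RBFOX2-INSCRIBE libraries. Members and lists were chosen with earlier results of these data known. Alternatives changed the pseudocount, the minimum of edited Cs, the edit fraction, the scaling, the baseline, the window, the groups fitted, the replicate block and the libraries kept.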

Additional observations from a re-analysis of the deposited data

Results flagged for a closer look

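Edits on the strand opposite to the isoform, within the same coding sequences, were not members but served above as the divisor of CDS sites per opposite-strand edit. They were higher in both RBFOX2-INSCRIBE libraries, at 2507 and 2397, than in any control library (1896 and 2375 in enzyme-only, 2315 and 2302 in buffer-only). The divisor itself therefore differed between the groups.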

How the results depend on the processing

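All 9 library-level results kept their direction under every alternative run. The RBFOX2-INSCRIBE excess of CDS sites over enzyme-only was 1.28 with edit fractions of at least 0.02, and the difference in UGCAUG ratio from enzyme-only ranged from 0.056 (window of 100 nt) to 0.384 (whole CDS as baseline), and from buffer-only from 0.066 to 0.369. The stop-creating difference from buffer-only was -0.056 with the same preceding and following base and -0.046 at an edit fraction of at least 0.02. It was -0.0015 without RBFOX2-INSCRIBE replicate 1 and -0.019 without replicate 2. Depth is unknown, so these limits cannot be set against read numbers. For the block, enzyme-only replicates 2 and 3 carry the numbers 1 and 2 of their replicate annotation, which differ from those of the titles. These numbers did not pair the libraries: deviations of libraries with the same annotated number correlated at 0.14 (RBFOX2-INSCRIBE and enzyme-only), -0.024 (RBFOX2-INSCRIBE and buffer-only) and 0.022 (the 2 controls).

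Counts of CDS segments called moved more. Against enzyme-only (0), they were 2 with a pseudocount of 1, 3 with at least 10 edited Cs and 9 with the replicate block. Against buffer-only (1076), they were 425 at a minimum average of 1 edited C, 586 in a fit with all 3 groups, 24 at an edit fraction of at least 0.02, 0 after scaling to the same total, 1060 with the replicate block, and 0 to 183 when 1 library was left out. For enzyme-only against buffer-only (12), they were 4 and 23 with pseudocounts of 1 and 0.1, 1 and 0 with means of at least 10 and 1 edited Cs, 3 with the replicate block, 20 with all 3 groups, 1 at an edit fraction of at least 0.02, 0 after scaling, 0 with summed fractions and 0 without any library. For the CDS minus the 3′ UTR against buffer-only (0), they were 94 with at least 10 edited Cs, 3 with the replicate block and 0 to 53 without a library. Scaling tests shares of a library's edits rather than numbers. The cause of the other changes was not tested.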
